A study of Homo sapiens with 24 samples.

Results

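The set described here holds 10 genes of iron uptake, storage, export and sensing: TF, TFRC, FTH1, FTL, SLC40A1, SLC11A2, SLC25A37, IREB2, ACO1 and NCOA4. They were taken by symbol from the gene rows of the RNA and footprint count tables, and all 10 were found among the 57992 genes used. All 10 passed the filter on low counts in both assays. The cells were K562, an established human chronic myelogenous leukaemia line with erythroid features, with CRISPR interference induced by doxycycline, in which a guide RNA leads a repressor to a gene's promoter. In sgDDX3 cells the guide targets DDX3X, whose product is an RNA helicase active in translation initiation, while sgGal4 serves as control. Cells of each guide were sampled at day 0, day 3 and day 14, the later 2 counted from the knockdown, as cytosolic RNA and as ribosome footprints, with 2 libraries in each of the 12 groups and 24 in all. The labels give doxycycline at 50 ng/ml for every sample, day 0 included, and do not say whether the day 0 cells had already received it. Nothing in the labels says that the libraries of a group came from separate cultures, so the p-values reflect no more than how far these libraries spread, and that spread may be technical.

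Transferrin, the product of TF, carries ferric iron in plasma and hands it to cells through the transferrin receptor. Inside the cell, iron is reduced, moved out of the endosome, sent to mitochondria for heme and iron-sulfur clusters, stored in ferritin or exported by ferroportin. When iron is scarce, the RNA-binding proteins IRP1 and IRP2 bind hairpins called iron responsive elements, which blocks translation of mRNAs that carry the hairpin near the 5′ end, such as the ferritins, and protects TFRC mRNA, which carries it near the 3′ end. Erythroid cells take up iron mainly through the receptor and use most of it for heme.

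The loop of that hairpin could be read in the RefSeq windows around transcript starts (GRCh38.p14), which covered 8 of the 10 genes. FTH1, the other ferritin gene, and SLC25A37 had no window and were not searched. The search was for a C, any 5 bases, CAGTG and any base, on the transcript strand only and in the first 50 bases of the transcript. This string was found in 586 of 35116 windows (1.67%) and, among the members with a window, in FTL alone. The FTL stretch is shown because FTL is the member whose footprints and RNA parted most between the guides, and that of ALAS2, the erythroid enzyme that starts heme synthesis, is shown for comparison. Capitals mark the searched string, with the bulged C first and the loop last.
FTL: tctgtctcttgCTTCAACAGTGTttggac
ALAS2: tgtcattcgttCGTCCTCAGTGCagggcaa
The FTL stretch is chr19:48965330-48965358 on the + strand, bases 22 to 50 of the transcript. The ALAS2 stretch is chrX:55030945-55030974 on the - strand, bases 4 to 33. A match describes these letters and no match says only that they are not in this window.

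Depth ran from 10266619 to 43256563 counts per RNA library and from 6223963 to 15240512 per footprint library. DDX3X RNA at day 3 was 38.9 and 33.7 CPM in the sgDDX3 libraries, against 185 and 174 CPM in the sgGal4 libraries, a fall of 4.89-fold, and by day 14 the difference had narrowed to 1.65-fold. CPM here is a gene's count per 1e+06 counts of its library, scaled between libraries of an assay by TMM factors. At day 0 DDX3X RNA was already somewhat lower, at 175 and 185 CPM in sgDDX3 against 214 and 203 CPM in sgGal4. This was not called in edgeR (-0.21, SE 0.10, adjusted p = 0.999), but was in an edgeR fit of only the compared groups (adjusted p = 0.0151). Day 0 footprints were 134 and 148 CPM in sgDDX3 against 154 and 151 CPM in sgGal4, not called. In footprints the DDX3X difference was 4.12-fold at day 3 and 1.53-fold at day 14, lower in sgDDX3, and the day 14 footprint call was lost without either sgDDX3 day 14 library (adjusted p = 0.0512 without replicate 1 and 0.0632 without replicate 2). The erythroid genes GATA1, TAL1, KLF1, HBG2, HBZ and ALAS2 were each at 24.2 CPM or more in every RNA library, while HBG1, whose sequence nearly matches HBG2, had at most 5 counts. HBE1, another erythroid marker, was also low in RNA, at 0.451 to 3.97 CPM.

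Differences were tested with edgeR's quasi-likelihood test over all genes of an assay, and a gene was called at a Benjamini-Hochberg adjusted p below 0.05. At day 0 no member was called between the guides in RNA (1 of 10 at an unadjusted p below 0.05, 0 with DESeq2), in footprints (0 and 0) or in the footprint-to-RNA ratio (0 and 0), where 0.00547%, 0.0101% and 0.00673% of all genes tested were called. Even so, the guides did not overlap in day 0 RNA for TF, FTH1, FTL, SLC40A1, SLC25A37 and NCOA4. Lack of overlap alone, given for several genes below, is therefore not read as a difference. In RNA, 3 of 10 members were called at day 3 and 3 at day 14, where 14.1% and 14.6% of all genes were. Members and lists were chosen with earlier results of these data known. A share above that of all genes, here or below, is therefore not read as enrichment. At day 3, SLC40A1 was higher in sgDDX3 and TF and IREB2 were lower, against 7.68% of genes called higher and 6.39% called lower. At day 14, TFRC and SLC40A1 were higher and TF was lower, against 8.44% higher and 6.18% lower. In footprints, 3 of 10 members were called at each day, where 3.8% of genes were called at day 3 (1.55% higher, 2.25% lower) and 3.4% at day 14 (2.11% higher, 1.29% lower). TFRC and SLC40A1 were higher and FTL lower at day 3, and SLC40A1 was higher and TF and FTL lower at day 14. The median log2 difference of the 10 members was 0.03 in RNA and -0.07 in footprints at day 3, and -0.02 and -0.09 at day 14, beside medians over all genes of -0.01, 0.02, -0.01 and 0.00.

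**Figure D1:**
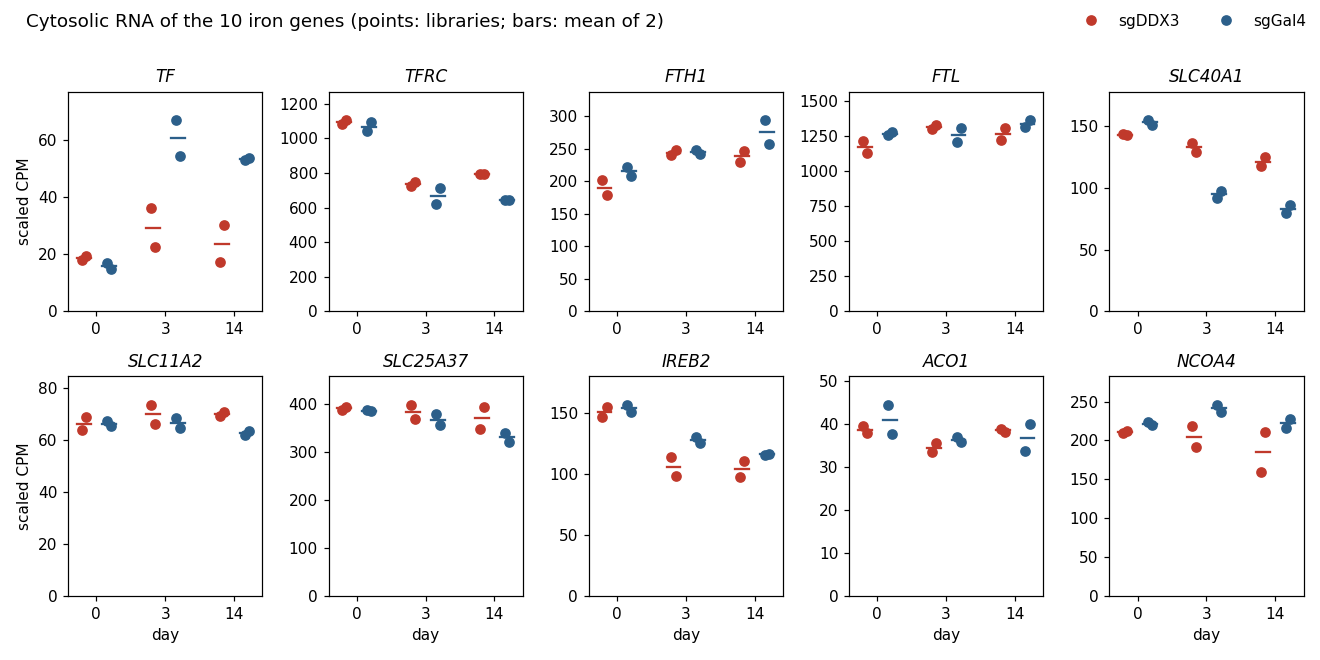
Scaled CPM of cytosolic RNA for each of the 10 iron genes at day 0, 3 and 14, with sgDDX3 in red and sgGal4 in blue; points are libraries and bars the mean of 2. TF stays at or below 35.9 CPM in sgDDX3 but reaches 52.7 CPM or more in the later sgGal4 libraries, and SLC40A1 lies between 118 and 143 CPM in all sgDDX3 libraries while the later sgGal4 libraries lie between 80.0 and 97.5 CPM.

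TF itself, the iron carrier, rose strongly with time in the control cells and much less in the sgDDX3 cells. In bulk samples such as these, fewer cells of a type and less RNA per cell cannot be told apart. At day 0, TF RNA was 18.0 and 19.5 CPM in sgDDX3 libraries and 17.0 and 14.9 CPM in sgGal4 libraries. At day 3 it was 35.9 and 22.4 CPM in sgDDX3, against 66.7 and 54.2 CPM in sgGal4. At day 14 it was 17.1 and 30.1 CPM in sgDDX3, against 52.7 and 53.7 CPM in sgGal4. Both sgDDX3 libraries lay below both sgGal4 libraries at day 3 and day 14, and above them at day 0. The sgDDX3 libraries were themselves far apart at day 3 and at day 14. TF RNA was lower in sgDDX3 by 2.01-fold at day 3 (log2 difference -1.01, SE 0.17, adjusted p = 0.000297) and by 2.27-fold at day 14 (-1.18, SE 0.18, adjusted p = 0.000156). Both calls held under every alternative run, with log2 differences of -1.44 to -0.77 at day 3 and -1.64 to -0.83 at day 14 when single libraries were left out. In sgGal4 the RNA rose 3.83-fold from day 0 by day 3 (1.94, SE 0.18) and 3.33-fold by day 14 (1.74, SE 0.19).

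TF footprints were ordered in the same way. They were 14.2 and 12.9 CPM in sgDDX3 and 10.2 and 11.7 CPM in sgGal4 at day 0. At day 3 they were 31.2 and 21.6 CPM in sgDDX3, against 46.7 and 38.0 CPM in sgGal4, and at day 14, 13.0 and 21.8 CPM in sgDDX3, against 32.4 and 34.5 CPM in sgGal4. The guides did not overlap at any day, with sgDDX3 above at day 0 and below afterwards. The footprint difference was not called at day 3 (-0.70, SE 0.21, adjusted p = 0.0818), though it was without sgDDX3 replicate 1 (-1.01, adjusted p = 0.0269), with total count scaling (-0.77, adjusted p = 0.0433) and with no low-count filter (-0.76, adjusted p = 4.6e-05), and it was called at day 14 (-0.96, SE 0.21, adjusted p = 0.0249). The day 14 call did not survive leaving out sgDDX3 replicate 1 (-0.62, adjusted p = 0.22), sgGal4 replicate 1 (-1.01, adjusted p = 0.0871) or sgGal4 replicate 2 (-0.94, adjusted p = 0.082), and in the fit of only the compared groups (adjusted p = 0.0565). The footprint-to-RNA ratio of TF was not called at either day (0.29, SE 0.30 at day 3, and 0.22, SE 0.31 at day 14).

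The difference between the guides in the change of TF RNA from day 0 was itself called, at -1.23 (SE 0.26, adjusted p = 0.00952) for day 3 and -1.40 (SE 0.27, adjusted p = 0.00408) for day 14. The day 3 value lost its call without sgDDX3 day 0 replicate 2 (-1.17, adjusted p = 0.0575), sgGal4 day 0 replicate 2 (-1.15, adjusted p = 0.0766) or sgGal4 day 3 replicate 1 (-1.05, adjusted p = 0.0789), and with DESeq2 (-1.27, adjusted p = 0.0539). In RNA, 2 of 10 members, TF and SLC40A1, passed this test at day 3 and the same 2 at day 14, where 3.7% and 4.46% of all genes did. In footprints 0 of 10 passed at day 3 (6 at an unadjusted p below 0.05, 1 with DESeq2) and 0 at day 14 (4 and 1), where 0.121% and 0.106% of genes did. TF overlaps SRPRB in the RefSeq table, a gene with 59.0 CPM in RNA and 75.4 CPM in footprints on average, and since the strand setting of the counting is not given in the sources used here, reads of the 2 genes may be mixed. Hepatocyte markers were near 0: APOB, TTR, FGB and SERPINA1 had no RNA count in any library, and the summed level of all 6 hepatocyte markers, ALB and APOA1 included, was 0.678 to 2.38 CPM in sgDDX3 and 0.161 to 0.864 CPM in sgGal4.

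The 5 genes below followed TF most closely across the 12 RNA libraries by Pearson correlation of log2 (CPM + 0.5), out of 9960 genes with a symbol and at least 10 CPM on average. They were the pseudogene CYP2F2P (r = 0.977), the vesicle-tethering subunit gene TRAPPC6A (0.971), the seryl-tRNA synthetase gene SARS1 (0.968), the receptor gene PTH2R (0.967) and PHGDH (0.965), the gene of the first enzyme of serine synthesis. These correlations are a description over libraries that share their groups. PHGDH RNA averaged 207 ± 12.6 CPM in sgDDX3 and 263 ± 23.7 CPM in sgGal4 at day 3 (SD, n = 2 each), and 170.3 ± 41.0 CPM in sgDDX3 and 267 ± 9.26 CPM in sgGal4 at day 14. At day 0 it averaged 144 ± 6.72 CPM in sgDDX3 and 124 ± 4.77 CPM in sgGal4.

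TFRC, the receptor that takes up iron-loaded transferrin, moved over time in the direction opposite to TF. Its RNA was 1082 and 1104 CPM in sgDDX3 and 1042 and 1092 CPM in sgGal4 at day 0, where the guides overlapped. At day 3 it was 727 and 749 CPM in sgDDX3, against 623 and 715 CPM in sgGal4. At day 14 it was 794 and 792 CPM in sgDDX3, against 646 and 644 CPM in sgGal4. From day 3 on, both sgDDX3 libraries lay above both sgGal4 libraries. The RNA difference was 0.14 (SE 0.07, adjusted p = 0.173) at day 3, not called, and 0.30 (SE 0.07, adjusted p = 0.00389), 1.23-fold higher in sgDDX3, at day 14. The day 14 call was lost without sgGal4 replicate 2 (0.30, adjusted p = 0.053). In sgGal4 TFRC RNA fell 1.60-fold by day 3 (-0.67, SE 0.07) and 1.65-fold by day 14 (-0.73, SE 0.07), and both calls held under every alternative. TFRC footprints were 878 and 985 CPM in sgDDX3, against 599 and 680.4 CPM in sgGal4, at day 3, and 979 and 875 CPM in sgDDX3, against 596 and 754 CPM in sgGal4, at day 14. No sgDDX3 library overlapped a sgGal4 library of its day. This was 0.54 (SE 0.14, adjusted p = 0.0437) at day 3, a call that was lost when any 1 of the 4 libraries was left out (adjusted p = 0.0525 and 0.166 without sgDDX3 replicate 1 and 2, and 0.336 and 0.131 without sgGal4 replicate 1 and 2). It was also lost with the ferritin copies pooled into their genes (0.0523), with only the compared groups (0.0767) and with total count scaling (0.0768). At day 14 it was 0.46 (SE 0.14, adjusted p = 0.0869), not called, although DESeq2 (0.46, adjusted p = 0.0257) and edgeR with no low-count filter (0.43, adjusted p = 0.00109) called TFRC.

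SLC40A1 encodes ferroportin, the exporter of cellular iron. Its RNA was 143 and 143 CPM in sgDDX3 and 155 and 151 CPM in sgGal4 at day 0. At day 3 it was 137 and 129 CPM in sgDDX3, against 92.2 and 97.5 CPM in sgGal4, and at day 14, 118 and 125 CPM in sgDDX3, against 80.0 and 85.9 CPM in sgGal4. The sgDDX3 libraries lay below the control at day 0 and above it at both later days. The RNA was higher in sgDDX3 by 1.41-fold at day 3 (0.49, SE 0.07, adjusted p = 7.93e-05) and by 1.46-fold at day 14 (0.54, SE 0.07, adjusted p = 3.89e-05), and in sgGal4 it fell 1.62-fold by day 3 (-0.69, SE 0.07) and 1.84-fold by day 14 (-0.88, SE 0.07). These 4 calls held under every alternative, as did the differences between the guides in the change from day 0, of 0.59 (SE 0.10, adjusted p = 0.00152) for day 3 and 0.64 (SE 0.10, adjusted p = 0.000822) for day 14.

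Footprints of SLC40A1 followed its RNA. They averaged 55.9 ± 3.99 CPM in sgDDX3 and 39.0 ± 3.47 CPM in sgGal4 at day 3, and 58.2 ± 0.236 CPM in sgDDX3 and 37.6 ± 4.85 CPM in sgGal4 at day 14 (SD, n = 2 each). The difference was 0.51 (SE 0.11, adjusted p = 0.0252) at day 3 and 0.63 (SE 0.11, adjusted p = 0.00797) at day 14. The day 3 call did not survive leaving out sgDDX3 replicate 1 (adjusted p = 0.107), sgGal4 replicate 1 (0.0972) or sgGal4 replicate 2 (0.179), in the fit of only the compared groups (0.09) and with total count scaling (0.0525). The day 14 call did not survive leaving out sgDDX3 replicate 1 (0.0682), sgGal4 replicate 1 (0.0659) or with only the compared groups (0.0565). The footprint-to-RNA ratio of SLC40A1 differed by 0.00 (SE 0.13) at day 3 and 0.09 (SE 0.13) at day 14, without a call.

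**Figure D2:**
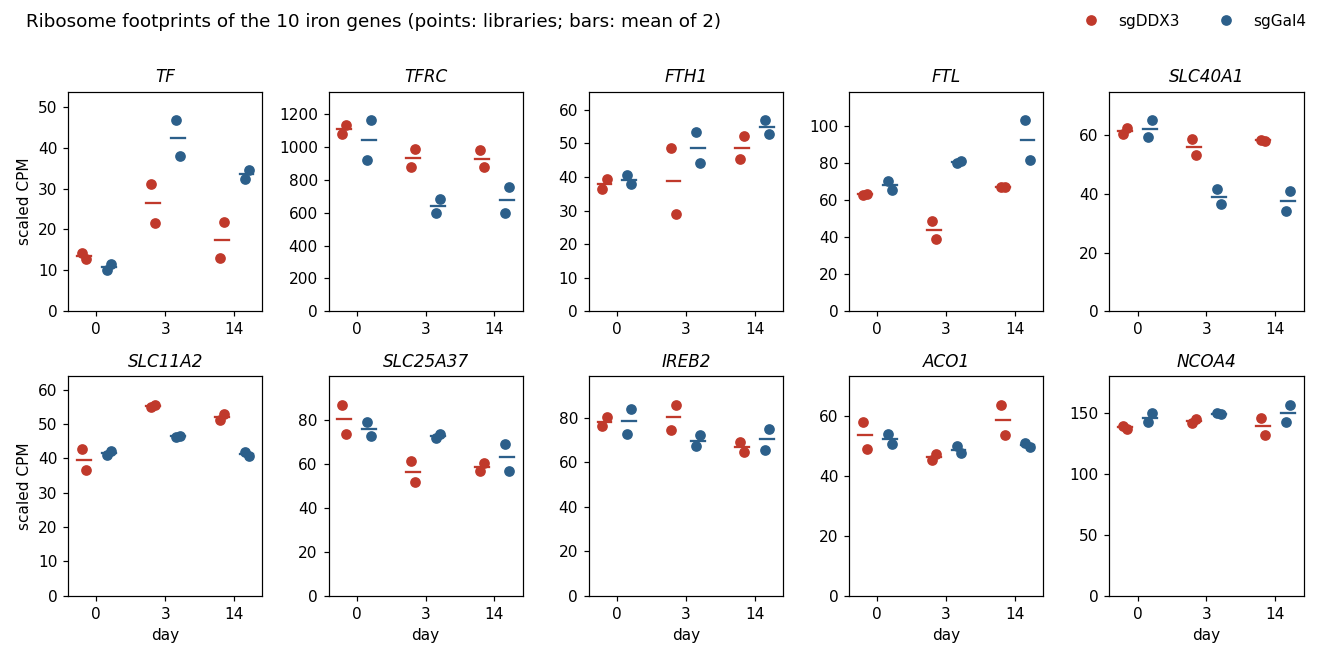
Scaled CPM of ribosome footprints for each of the 10 iron genes at day 0, 3 and 14, with sgDDX3 in red and sgGal4 in blue; points are libraries and bars the mean of 2. At day 3 the FTL footprints are 48.7 and 39.2 CPM in sgDDX3, below the 80.1 and 81.4 CPM of sgGal4, while its RNA overlapped between the guides.

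FTL encodes the light chain of ferritin, the iron storage cage, and was the 1 member called in the footprint-to-RNA ratio. At day 3 its RNA was 1306 and 1329 CPM in sgDDX3 and 1213 and 1309 CPM in sgGal4, which overlapped (0.06, SE 0.06, adjusted p = 0.576). Its footprints were 48.7 and 39.2 CPM in sgDDX3, against 80.1 and 81.4 CPM in sgGal4. They were lower in sgDDX3 by 1.84-fold (-0.88, SE 0.12, adjusted p = 0.00228), and the ratio of mean footprint CPM to mean RNA CPM was 0.0333 in sgDDX3 and 0.0640 in sgGal4. The ratio was lower by 1.96-fold (-0.97, SE 0.14, adjusted p = 6.62e-05), and both the footprint and the ratio call held under every alternative. At day 0 the ratio was 0.0538 in sgDDX3 and 0.0537 in sgGal4. Of the 10 members, 1 was called in the ratio at day 3, where 5.41% of all genes were, and 0 at day 14 (1 at an unadjusted p below 0.05, 0 with DESeq2), where 1.72% were. At day 14 FTL footprints were 67.4 and 67.1 CPM in sgDDX3, against 103 and 81.9 CPM in sgGal4, with a difference of -0.46 (SE 0.12, adjusted p = 0.0461) and a ratio difference of -0.38 (SE 0.14, adjusted p = 0.222), which was called without sgGal4 footprint replicate 2 (-0.53, adjusted p = 0.0437). That footprint call did not survive leaving out sgDDX3 replicate 1 (-0.47, adjusted p = 0.212), sgDDX3 replicate 2 (-0.46, adjusted p = 0.162) or sgGal4 replicate 1 (-0.28, adjusted p = 0.262), and in the fit of only the compared groups (adjusted p = 0.129). Whether the ratio difference itself changed between day 3 and day 14 was not tested.

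FTH1 encodes the heavy chain of ferritin, which oxidises the iron that enters the cage. Its RNA at day 3 was 239 and 247 CPM in sgDDX3 and 247 and 242 CPM in sgGal4, and at day 14 229 and 247 CPM in sgDDX3, against 293 and 256 CPM in sgGal4. The guides overlapped at day 3 and not at day 14, and neither difference was called (-0.01, SE 0.08, and -0.20, SE 0.08, adjusted p = 0.0889). Footprints of FTH1 at day 3 were 48.7 and 29.0 CPM in sgDDX3 and 53.3 and 44.3 CPM in sgGal4, which overlapped, with a ratio difference of -0.37 (SE 0.19, adjusted p = 0.319). Without sgDDX3 footprint replicate 1, FTH1 was called lower in footprints (-0.79, adjusted p = 0.0115) and in the ratio (-0.77, adjusted p = 0.00395). Without sgDDX3 footprint replicate 2 the differences were -0.01 (adjusted p = 0.986) and -0.03 (adjusted p = 0.967). Over time in sgGal4, FTH1 RNA was called higher at day 14 than at day 0 (0.35, SE 0.08, adjusted p = 0.00422), a call lost without sgGal4 day 0 replicate 2 (0.31, adjusted p = 0.072) or day 14 replicate 1 (0.26, adjusted p = 0.104). The FTL RNA change over the same span was not called (0.08, SE 0.06, adjusted p = 0.445).

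The ferritin values are uncertain, since both genes have processed copies that share their sequence. The 25 annotated FTH1 pseudogenes held 55.5% to 59.7% of the RNA counts of FTH1 and its copies together, and 61.6% to 69.7% of the footprint counts. The 16 FTL pseudogenes held 4.54% to 4.96% of the RNA counts and 15.0% to 21.3% of the footprint counts. With the copies added to their parent genes, the FTL differences at day 3 were -0.92 in footprints (adjusted p = 0.000985) and -0.99 in the ratio (adjusted p = 2.25e-05), and those of FTH1 were -0.54 (adjusted p = 0.0603) and -0.51 (adjusted p = 0.0599).

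**Figure D3:**
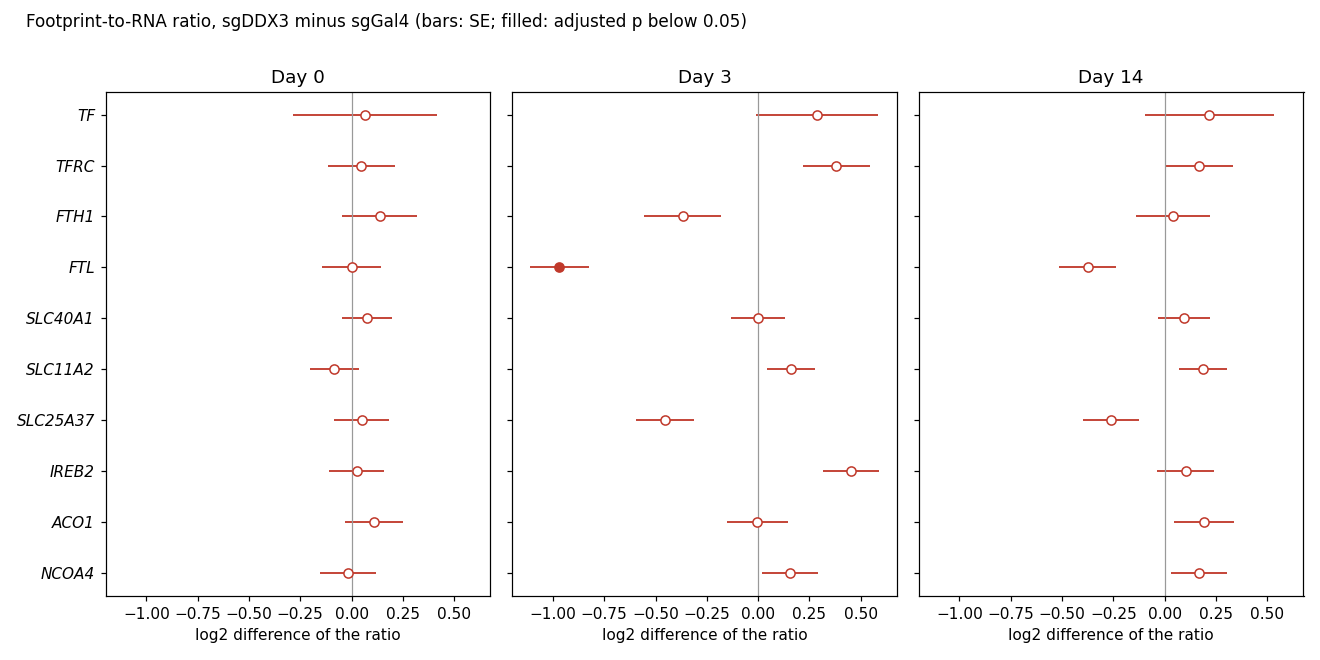
Log2 difference (sgDDX3 minus sgGal4) of the footprint-to-RNA ratio of the 10 iron genes at day 0, day 3 and day 14, on 1 scale; bars are standard errors and filled points have an adjusted p below 0.05. FTL at day 3 is the 1 filled point, at -0.97, with SLC25A37 at -0.45 and IREB2 at 0.45 next in size.

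Neither of the transporters of iron across inner membranes was called between the guides. SLC11A2, the divalent metal transporter DMT1 that moves iron out of the endosome, ranged from 61.9 to 73.6 CPM in RNA over the 12 libraries and was not called at either later day (0.07, SE 0.08 at day 3, and 0.16, SE 0.08 at day 14). Its footprints were 54.9 and 55.5 CPM in sgDDX3 against 46.3 and 46.5 CPM in sgGal4 at day 3, and 51.1 and 52.9 CPM in sgDDX3 against 41.7 and 40.7 CPM in sgGal4 at day 14. The guides did not overlap in these footprints, but the differences of 0.25 (SE 0.09, adjusted p = 0.16) and 0.33 (SE 0.09, adjusted p = 0.0688) missed the threshold. SLC25A37, mitoferrin-1, which brings iron into mitochondria of erythroid cells, had RNA of 399 and 370.2 CPM in sgDDX3 and 379 and 356 CPM in sgGal4 at day 3, with overlap. Its footprints at day 3 were 61.6 and 51.6 CPM in sgDDX3, against 72.0 and 73.7 CPM in sgGal4, a difference of -0.37 (SE 0.12, adjusted p = 0.12), and its ratio difference was -0.45 (SE 0.14, adjusted p = 0.0572), which DESeq2 called (-0.44, adjusted p = 0.0345). In sgGal4 its RNA was called lower at day 14 than at day 0 (-0.22, SE 0.07, adjusted p = 0.0344), a call lost when any 1 of the 4 libraries was left out (adjusted p = 0.0874 to 0.25), with no low-count filter (0.0534) and with total count scaling (0.0652).

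Of the 2 iron sensors, IREB2 encodes IRP2, which is degraded when iron is plentiful, and ACO1 encodes IRP1, which also works as a cytosolic aconitase. IREB2 RNA at day 3 was 113 and 98.4 CPM in sgDDX3, against 130.1 and 125 CPM in sgGal4, and at day 14 it was 97.3 and 110.1 CPM in sgDDX3, against 116 and 116 CPM in sgGal4. The guides did not overlap at either day. The difference was -0.26 (SE 0.08, adjusted p = 0.0305) at day 3 and -0.16 (SE 0.08, adjusted p = 0.209) at day 14. The day 3 call did not survive leaving out sgDDX3 replicate 2 (-0.17, adjusted p = 0.256), sgGal4 replicate 1 (-0.23, adjusted p = 0.209) or sgGal4 replicate 2 (-0.29, adjusted p = 0.0836), and in the fit of only the compared groups (adjusted p = 0.0504). IREB2 footprints at day 3 leaned the other way, at 74.7 and 85.8 CPM in sgDDX3 and 67.1 and 72.2 CPM in sgGal4 (0.21, SE 0.11, adjusted p = 0.326), and the ratio difference was 0.45 (SE 0.14, adjusted p = 0.0543), which DESeq2 called (0.47, adjusted p = 0.033). In sgGal4, IREB2 RNA fell 1.33-fold by day 14 (-0.41, SE 0.08, adjusted p = 0.0017), under every alternative.

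ACO1 stayed between 33.5 and 44.5 CPM in RNA and between 45.3 and 63.6 CPM in footprints in all 12 libraries of each assay, and was called in no comparison. Its guide difference was -0.09 (SE 0.10) in RNA at day 3 and 0.04 (SE 0.10) at day 14, and 0.23 (SE 0.11, adjusted p = 0.288) in footprints at day 14. NCOA4, the receptor that delivers ferritin to lysosomes, was also called in no comparison. Its RNA was 218 and 191 CPM in sgDDX3, against 246 and 237 CPM in sgGal4, at day 3, and 159 and 210.4 CPM in sgDDX3, against 216 and 227 CPM in sgGal4, at day 14. Both sgDDX3 libraries lay below the control at both days (-0.24, SE 0.09, adjusted p = 0.0983, and -0.26, SE 0.09, adjusted p = 0.0647). Without sgDDX3 day 14 replicate 2 the day 14 NCOA4 difference was called (-0.48, adjusted p = 0.000132), and without replicate 1 it was -0.08 (adjusted p = 0.6).

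**Figure D4:**
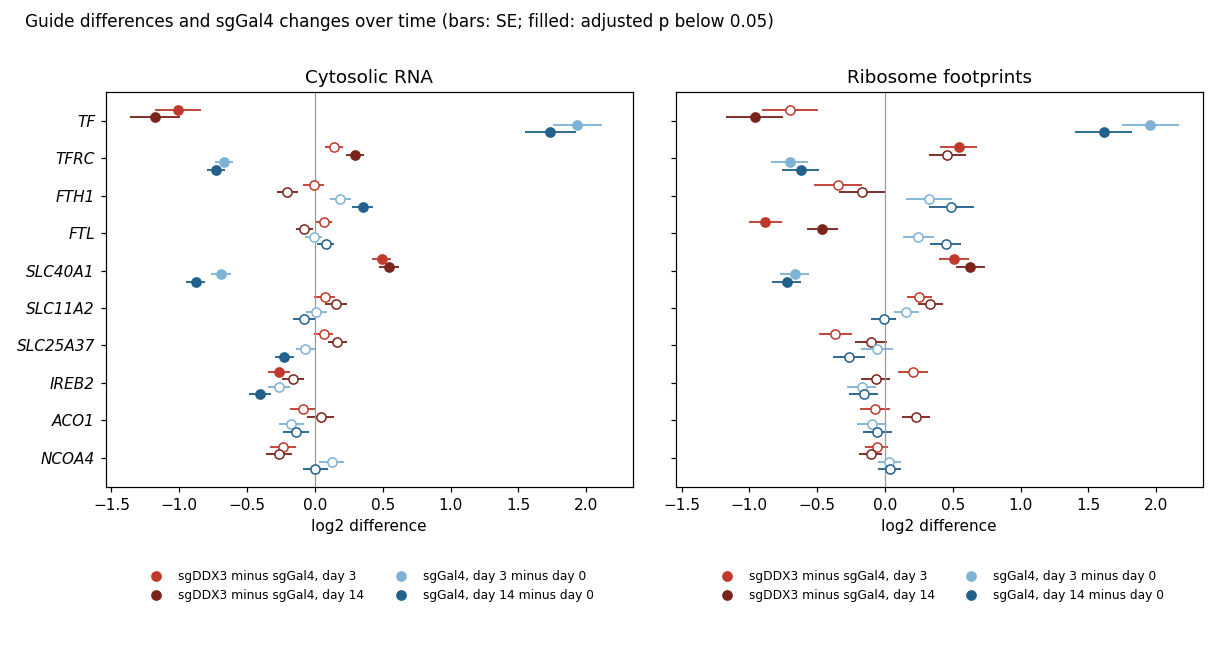
Log2 differences of the 10 iron genes in cytosolic RNA (left) and ribosome footprints (right), for sgDDX3 minus sgGal4 at day 3 and day 14 (reds) and for sgGal4 at day 3 and day 14 minus day 0 (blues); bars are standard errors and filled points have an adjusted p below 0.05. For TF, TFRC and SLC40A1 the red and blue points lie on opposite sides of 0 in both assays, which the later sgGal4 libraries shared by both comparisons favour by themselves.

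Set side by side, the guide differences and the changes over time in sgGal4 had opposite signs for TF, TFRC and SLC40A1 in both assays and at both days. IREB2 had the same sign in RNA, at -0.26 between the guides and -0.27 over time at day 3, and -0.16 and -0.41 at day 14. Signs were opposite for 7 of the 10 members in RNA at day 3, 9 in RNA at day 14, 7 in footprints at day 3 and 8 in footprints at day 14. The comparisons share the later sgGal4 libraries, which by itself favours opposite signs, so nothing is read from these counts or from the signs of single genes. Over time in sgGal4, 3 of 10 members were called in RNA at day 3, where 5.68% of genes were, with TF higher (3.41% of genes higher) and TFRC and SLC40A1 lower (2.27% lower). At day 14, 6 were called against 16.2% of genes, with TF and FTH1 higher (7.7% higher) and TFRC, SLC40A1, SLC25A37 and IREB2 lower (8.55% lower). In footprints TF rose 3.88-fold by day 3 (1.96, SE 0.21, adjusted p = 0.000812) and 3.06-fold by day 14 (1.61, SE 0.21, adjusted p = 0.00187), and both calls held under every alternative. TFRC and SLC40A1 were the other 2 footprint calls at each day, both lower. That made 3 of 10 against 1.26% of genes at day 3 (0.703% higher, 0.561% lower) and 3 of 10 against 2.47% at day 14 (1.54% higher, 0.93% lower). The ratio of footprints to RNA was called over time for 0 of 10 members at day 3 (0 at an unadjusted p below 0.05, 0 with DESeq2) and 0 at day 14 (1 and 0), where 0% and 0.121% of genes were.

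The lower values of TFRC and SLC40A1 over time in sgGal4 footprints kept their direction when single libraries were left out, but each of these 4 calls was lost in 1 or more of those fits, in which a group had 1 library left. TFRC at day 3 (-0.70, SE 0.14, adjusted p = 0.0275) lost its call when any 1 of the 4 libraries was left out, with log2 changes of -0.86 to -0.50 and adjusted p of 0.0709 to 0.281. At day 14 (-0.62, SE 0.14, adjusted p = 0.0336) TFRC lost it without day 0 replicate 1 (0.0545), day 0 replicate 2 (0.302) or day 14 replicate 1 (0.145), and with only the compared groups (0.0731), and left-out values were -0.79 to -0.42. SLC40A1 at day 3 (-0.67, SE 0.11, adjusted p = 0.0109) lost it without day 0 replicate 1 (0.0709), day 0 replicate 2 (0.142) or day 3 replicate 2 (0.147), and left-out values were -0.75 to -0.58. SLC40A1 at day 14 (-0.72, SE 0.11, adjusted p = 0.00482) lost it without day 0 replicate 2 (0.0933), and left-out values were -0.85 to -0.60.

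Other genes of iron handling were counted in 5 lists. Of 12 genes of uptake and reduction, 9 were tested and between the guides in RNA 0 were higher and 1 lower at day 3, and 0 higher and 2 lower at day 14, where 14.1% and 14.6% of all genes were called. SLC39A8, a metal importer of the plasma membrane, was lower in sgDDX3 in RNA by 1.43-fold at day 3 (-0.52, SE 0.08, adjusted p = 0.000195) and by 1.51-fold at day 14 (-0.59, SE 0.09, adjusted p = 8.13e-05), and lower in footprints at both days (-0.57 and -0.52). EXOC6, an exocyst subunit needed for transferrin cycling in mouse red cell precursors, was lower in RNA at day 14 (-0.38, SE 0.10, adjusted p = 0.00989). The EXOC6 footprint difference at that day was not called (-0.30, SE 0.14, adjusted p = 0.293). CYBRD1, a ferric reductase, was not called between the guides and fell in sgGal4 RNA by day 14 (-0.40, SE 0.11, adjusted p = 0.0145). The list's median log2 RNA difference was 0.07 at day 3 and 0.10 at day 14.

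Of 9 genes of export and plasma iron only 2 were tested in RNA, where 14.1% and 14.6% of all genes were called between the guides at day 3 and day 14. HEPH, a ferroxidase that works with ferroportin, was the 1 called, lower in sgDDX3 at day 3 (-0.30, SE 0.07, adjusted p = 0.00937) and day 14 (-0.24, SE 0.08, adjusted p = 0.0367). Its footprint differences were not called (-0.21, SE 0.11, adjusted p = 0.333, and -0.24, SE 0.11, adjusted p = 0.262). In sgGal4, HEPH RNA was called higher at day 14 than at day 0 (0.23, SE 0.07, adjusted p = 0.0401). HJV, a co-receptor that controls hepcidin in liver, was higher in sgGal4 RNA at day 14 than at day 0, at 1.32 ± 0.367 CPM at day 14 and 0.402 ± 0.235 CPM at day 0 (SD, n = 2 each, adjusted p = 0.0236 in edgeR). These levels are near the floor, and HJV RNA did not exceed 1.61 CPM in any library. The HJV footprint change over the same span was not called (1.29, SE 0.57, adjusted p = 0.265 in edgeR). In sgDDX3, HJV RNA averaged 1.29 CPM at day 3 and 1.26 CPM at day 14. HAMP, which encodes the hormone hepcidin, passed the filter in footprints only, and did so through the later sgGal4 libraries, in which it was highest, so its call over time is not used. HAMP footprints were 1.33 ± 0.667 CPM in sgGal4 at day 14 and 0.173 ± 0.0296 CPM at day 0, where both libraries were at or below the level of 3 counts. Of 16 genes of iron chaperones, ferritin turnover and heme recycling, 13 were tested in RNA, with 1 higher and 2 lower in sgDDX3 at each later day, beside the same 14.1% and 14.6% of all genes. HERC2, a ubiquitin ligase that acts on NCOA4, was higher at day 3 (0.34, SE 0.07) and day 14 (0.29, SE 0.07), and BLVRB, a biliverdin reductase, was lower (-0.56, SE 0.09, and -0.40, SE 0.09). In footprints both were called in these directions at day 3 (0.43, SE 0.10, and -0.65, SE 0.11), and neither at day 14 (0.10, SE 0.10, and -0.20, SE 0.11). PCBP2, an iron chaperone, was lower in RNA at day 14 (-0.36, SE 0.09, adjusted p = 0.00624), without a footprint call (-0.14, SE 0.08, adjusted p = 0.401). The median RNA difference of this list was -0.06 at day 3 and -0.04 at day 14.

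Of 30 genes of mitochondrial iron and iron-sulfur clusters, 29 were tested, with 2 higher and 1 lower in sgDDX3 RNA at day 3 and 1 higher and 3 lower at day 14, again beside 14.1% and 14.6% of all genes. ABCB10, a transporter of the inner mitochondrial membrane that stabilises mitoferrin-1 in mouse erythroid cells, was lower in sgDDX3 at day 3 in RNA (-0.40, SE 0.07, adjusted p = 0.000583), in footprints (-0.78, SE 0.09, adjusted p = 0.000553) and in the ratio (-0.40, SE 0.11, adjusted p = 0.0245). ABCB10 footprints averaged 53.8 ± 3.03 CPM in sgDDX3 and 92.4 ± 2.75 CPM in sgGal4 at that day. BOLA3, an iron-sulfur cluster assembly factor, was higher in RNA (0.28, SE 0.09, adjusted p = 0.0377) and lower in the ratio (-0.65, SE 0.14, adjusted p = 0.00304) at day 3. Without a call, BOLA3 already lay lower in sgDDX3 at day 0, in footprints (-0.26, SE 0.10) and in the ratio (-0.27, SE 0.13). At day 14 its ratio differed by -0.06 (SE 0.14), also not called. CISD1, an outer mitochondrial membrane protein with an iron-sulfur cluster, was not called between the guides and fell in sgGal4 RNA by day 3 (-0.40, SE 0.11, adjusted p = 0.0276) and day 14 (-0.48, SE 0.11, adjusted p = 0.00437). The list's median RNA difference was -0.03 at day 3 and -0.09 at day 14.

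The last list holds 10 mRNAs known to carry an iron responsive element, of which 5 are members. In sgDDX3 RNA, 2 of the 10 were higher and 1 lower at day 3, and 3 higher and 1 lower at day 14, and in footprints 2 higher and 2 lower at day 3 and 1 higher and 2 lower at day 14. Of all genes, 14.1% and 14.6% were called in RNA and 3.8% and 3.4% in footprints. Both FTL and ALAS2, whose loops are printed above, had fewer footprints in sgDDX3 at day 3, but they differed in RNA. ALAS2 RNA averaged 79.0 ± 3.89 CPM in sgDDX3 and 127 ± 6.72 CPM in sgGal4 (-0.68, SE 0.07, adjusted p = 2.19e-06), its footprints 63.8 ± 4.25 CPM in sgDDX3 and 101 ± 1.94 CPM in sgGal4 (-0.67, SE 0.09, adjusted p = 0.00128), and its ratio differed by -0.01 (SE 0.11, adjusted p = 0.984), whereas the ratio of FTL differed by -0.97. ALAS2 RNA rose over time in sgGal4 by day 3 (0.37, SE 0.07, adjusted p = 0.00442) and by day 14 (0.46, SE 0.07, adjusted p = 0.000273). EPAS1, the hypoxia factor HIF-2 alpha, rose in sgGal4 RNA by day 3 (0.50, SE 0.09, adjusted p = 0.00172) and was not called between the guides. CDC42BPA, a kinase that acts on the cytoskeleton, was higher in sgDDX3 RNA at day 3 (0.36, SE 0.07, adjusted p = 0.00178) and day 14 (0.33, SE 0.07, adjusted p = 0.00366). Its footprints were not called at day 3 (0.36, SE 0.11, adjusted p = 0.101) or day 14 (0.09, SE 0.11, adjusted p = 0.735).

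ALAS2 is also among the 8 erythroid markers used, all of which had RNA counts in at least some libraries. Their summed RNA level was lower in sgDDX3 at every day. That sum was 517 to 539 CPM in sgDDX3 and 546 to 558 CPM in sgGal4 at day 0. At day 3 it was 506 to 544 CPM in sgDDX3 and 610.5 to 638 CPM in sgGal4, and at day 14 538 to 588 CPM in sgDDX3 and 623 to 639 CPM in sgGal4. The guides did not overlap in RNA at any day. ALAS2 alone averaged 79.0 CPM in sgDDX3 and 127 CPM in sgGal4 at day 3. At day 14 it averaged 87.4 CPM in sgDDX3 and 135 CPM in sgGal4, so this 1 gene makes up much of the later gap. The sum does not say that the 8 markers moved together. In footprints the sum was 679.6 to 680.0 CPM in sgDDX3 and 709 to 754 CPM in sgGal4 at day 0, 699 to 722 CPM in sgDDX3 and 736 to 749.6 CPM in sgGal4 at day 3, and 740.2 to 744 CPM in sgDDX3 and 713 to 799 CPM in sgGal4 at day 14, where the guides overlapped. The part of this shift in the TF, SLC40A1, TFRC and FTL results was not tested.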

How the data were processed

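Cytosolic RNA and ribosome footprints (RNase I, cycloheximide, S-400 columns, per the labels' protocols) were measured in 12 libraries each. The deposited tables hold whole-number counts per gene, made by the authors. The submitters' processing notes name cutadapt 3.4, Bowtie2 2.4.1, STAR 2.7.5a, DESeq2 and GRCh38, without their roles; the counting program, annotation and strand setting were not given in the sources used here. Of 58037 genes, 45 copies on Y were left out, and 98.2% of the other 57992 had a symbol.

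Counts were tested with edgeR 4.0.16 (R 4.3.3, limma 3.58.1) by the quasi-likelihood test, with TMM factors, a filter at a minimum count of 10, and a fit of all 6 groups of an assay. It tested 18287 genes in RNA and 19780 in footprints. The footprint-to-RNA ratio was the interaction with assay in a fit of all 24 libraries over 14853 genes. Variation between libraries, as edgeR's common coefficient, came to 6.13% for RNA and 9.99% for footprints. DESeq2 1.42.0, other scalings, no filter, only the compared groups, the replicate block and pooling of ferritin copies and leaving out libraries were alternatives, and a newer edgeR fit and a block joining same-numbered footprint and RNA libraries were added after seeing the data. The scripts were tested on simulated data.

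Named were all members, DDX3X, up to 3 genes per list with the smallest p among those that passed, and the 5 genes closest to TF. Members and lists were chosen with earlier results of these data known. One erythroid marker is not reported here and stayed out of the summed marker level. Sequences are from RefSeq. Same-numbered libraries did not all deviate together (correlations of -0.48 to 0.354 in RNA and -0.461 to 0.44 in footprints over 15 pairs of groups each, 4 and 7 of them over 0.1, and -0.06 to 0.22 between the RNA and footprints of a guide and day), so numbers were not used as pairs. Figures were drawn in matplotlib 3.10.9 (Python 3.11.15, pandas 2.3.3).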

Additional observations from a re-analysis of the deposited data

Results flagged for a closer look

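The change from day 0 differed between sgDDX3 and sgGal4 by a direct test of that difference (edgeR, adjusted over all genes) for TF and SLC40A1 RNA. For TF the difference in log2 change was -1.23 (SE 0.26, adjusted p = 0.00952) at day 3 and -1.40 (SE 0.27, adjusted p = 0.00408) at day 14. For SLC40A1 it was 0.59 (SE 0.10, adjusted p = 0.00152) at day 3 and 0.64 (SE 0.10, adjusted p = 0.000822) at day 14. The TF value at day 3 lost its call with DESeq2 and when any of 3 single libraries was left out, while the other 3 values kept theirs under every alternative run.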

How the results depend on the processing

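Of 776 values of 60 single-gene results under alternatives, 673 stayed on the same side of the threshold, 54 lost a call, 49 gained one and 0 turned direction. Another 136 uncalled results were called under no alternative, and 55 of them, up to 0.31 in size, changed sign under at least 1. Members called between the guides were 5 in RNA at day 14 and 5 in footprints at day 3 with no filter; with only the compared groups they were 1 in footprints at day 3 and 0 at day 14, and in the ratio at day 3 they were 3 with DESeq2, 2 with RLE size factors, 2 with total counts and 2 with a block joining same-numbered footprints and RNA (SLC25A37 added, -0.45, adjusted p = 0.0269). Over time in sgGal4 they were 5 in RNA at day 3 with only the compared groups, and 5 in footprints at day 14 both with no filter and with ferritin copies pooled. In the guide by time test they were 1 in RNA at day 3 with DESeq2; in footprints at day 3, 1 with DESeq2, 2 with no filter and 1 with only the compared groups; and in footprints at day 14, 1 with DESeq2 and 2 with no filter. With 1 library left out, the guide counts were 2 to 6 in RNA at day 14, 1 to 3 and 0 to 2 in footprints at day 3 and 14, and 1 to 4 and 0 to 1 in the ratio; over time in footprints 1 to 2 and 1 to 4; and in guide by time 1 to 2 in RNA at day 3 and 0 to 1 in footprints at both days. DDX3X between the guides was -0.22 in day 0 RNA with only the compared groups, a gained call, and -0.67 to -0.56 in day 14 footprints with 1 library left out. The replicate block, although the numbers did not pair the samples, added calls of TFRC between the guides in day 14 footprints (0.47, adjusted p = 0.0476) and of FTL over time in day 14 footprints (0.44, adjusted p = 0.0429), and no member lost a call under it. The causes of these changes were not tested. With 2 libraries per group, small differences in footprints, the shallower assay, are the least certain.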
